A study of Homo sapiens with 6 samples.

Results

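The genes described here are 9 genes of the MHC class I pathway, through which a cell shows fragments of its own proteins to CD8+ T cells. They were taken by symbol, as HLA-B, HLA-C, HLA-E, HLA-F, B2M, TAP1, TAP2, PSMB9 and NLRC5, from 58381 genes in the count tables, and each symbol met 1 gene identifier. All 9 were among the 23160 genes with enough reads to be tested. Their levels were measured in 786-0 cells, an established line of human clear cell renal carcinoma, and every library carried the label SETD2 KO, a knockout of the histone H3 methyltransferase SETD2. Polyadenylated RNA was sequenced after vehicle (DMSO) or after decitabine at 100 nM or 300 nM, from 6 libraries, 2 in each group. Cells were dosed daily for 3 days, had fresh medium on day 4 and were collected on day 5. Decitabine is a cytidine analogue that enters DNA during replication and traps DNA methyltransferases. The labels leave out whether the knockout cells were 1 clone and whether paired libraries had cultures of their own. The p-values therefore rest on library-to-library spread, which may be technical.

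A class I molecule is a heavy chain, encoded by an HLA gene, held together with the invariant light chain beta-2-microglobulin (B2M) and a short peptide. The proteasome cuts cellular proteins into peptides, and in cells exposed to interferon its catalytic subunits are exchanged for inducible ones such as PSMB9. The transporter TAP, a pair of TAP1 and TAP2, moves peptides into the endoplasmic reticulum, where chaperones help load them on the heavy chain. NLRC5 is the class I transactivator, a protein that does not bind DNA by itself and acts at class I promoters through the factors RFX, CREB/ATF and NF-Y. Many of these promoters are also reached by interferon-regulated factors and by NF-kB.

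Assigned reads came to 93342879 and 92793965 for the DMSO libraries, 95271726 and 89159112 for 100 nM, and 90475363 and 96646427 for 300 nM. Levels are given as CPM, a gene's reads as a share of its library scaled by TMM, an edgeR method that balances library composition. Differences were tested with edgeR's quasi-likelihood test in 1 fit of all 6 libraries, two-sided, with Benjamini-Hochberg adjustment over 23160 genes, and a gene was called at an adjusted p under 0.05. SETD2 itself had 77.9 and 81.2 CPM with DMSO, 39.8 and 49.1 CPM at 100 nM, and 16.4 and 21.7 CPM at 300 nM, and with no library of intact cells among these samples the level cannot check the genotype. Of 8 renal carcinoma markers all were measured, with 4 called higher and 3 lower at 100 nM and 3 higher and 4 lower at 300 nM (2 lower without DMSO replicate 1 or without DMSO replicate 2). Among all tested genes 24.0% were called higher and 18.7% lower at 100 nM, and 34.8% and 31.1% at 300 nM. The keratin gene KRT18 was higher by log2 0.97 and 2.28 at 100 nM and 300 nM. PAX8, the renal lineage factor, was lower by -0.69 and -1.66, with a mean of 254 CPM with DMSO, 158 CPM at 100 nM and 80.3 CPM at 300 nM. CDH6 had the largest change of the 8, at -2.18 and -3.05, with means of 169 CPM with DMSO, 37.2 CPM at 100 nM and 20.3 CPM at 300 nM. None of these values takes gene length or base composition into account.

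RefSeq promoter entries (GRCh38.p14) were found for 7 of the 9 genes. The 250 bases before the start site are shown for a heavy chain gene and for the light chain gene. They are also shown for the 3 genes with the highest fold changes described below (HLA-F, PSMB9 and TAP1) and for TAP2, which had the lowest. Each is written 5′ to 3′ in the direction of the gene, and it is the reference sequence, not that of the cell line. Capitals mark matches, on either strand, to 4 motifs: the interferon-stimulated response element core (GAAA, any 2 bases, GAAA), the NF-kB site (GGGGA, any base, TCCCC), the cAMP response element core TGACG and the inverted CCAAT box ATTGG.
HLA-B, chr6:31357180-31357429, reverse strand: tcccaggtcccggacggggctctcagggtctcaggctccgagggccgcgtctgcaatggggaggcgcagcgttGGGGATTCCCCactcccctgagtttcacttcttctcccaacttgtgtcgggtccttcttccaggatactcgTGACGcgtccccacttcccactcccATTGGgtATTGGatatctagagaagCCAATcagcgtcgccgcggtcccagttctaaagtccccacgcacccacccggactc
HLA-F, chr6:29723184-29723433, forward strand: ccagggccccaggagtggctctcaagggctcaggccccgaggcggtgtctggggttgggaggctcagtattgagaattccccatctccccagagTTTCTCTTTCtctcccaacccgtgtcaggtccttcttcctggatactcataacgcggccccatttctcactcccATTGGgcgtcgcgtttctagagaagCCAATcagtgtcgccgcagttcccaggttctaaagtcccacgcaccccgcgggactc
B2M, chr15:44711267-44711516, forward strand: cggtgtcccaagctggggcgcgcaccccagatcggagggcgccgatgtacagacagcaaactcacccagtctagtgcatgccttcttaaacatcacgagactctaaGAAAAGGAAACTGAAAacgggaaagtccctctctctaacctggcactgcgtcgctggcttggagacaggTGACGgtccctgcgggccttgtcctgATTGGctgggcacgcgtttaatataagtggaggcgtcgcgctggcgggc
TAP1, chr6:32853705-32853954, reverse strand: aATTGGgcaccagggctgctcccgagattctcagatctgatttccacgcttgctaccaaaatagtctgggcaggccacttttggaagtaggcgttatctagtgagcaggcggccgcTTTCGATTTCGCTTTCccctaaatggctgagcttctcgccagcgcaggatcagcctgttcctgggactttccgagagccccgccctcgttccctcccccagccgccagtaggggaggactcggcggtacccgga
PSMB9, chr6:32853942-32854191, forward strand: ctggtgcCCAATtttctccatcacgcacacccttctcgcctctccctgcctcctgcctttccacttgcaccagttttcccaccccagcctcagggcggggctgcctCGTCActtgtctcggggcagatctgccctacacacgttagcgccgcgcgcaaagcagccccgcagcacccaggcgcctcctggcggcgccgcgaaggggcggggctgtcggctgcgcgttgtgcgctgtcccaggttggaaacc
TAP2, chr6:32838740-32838989, reverse strand: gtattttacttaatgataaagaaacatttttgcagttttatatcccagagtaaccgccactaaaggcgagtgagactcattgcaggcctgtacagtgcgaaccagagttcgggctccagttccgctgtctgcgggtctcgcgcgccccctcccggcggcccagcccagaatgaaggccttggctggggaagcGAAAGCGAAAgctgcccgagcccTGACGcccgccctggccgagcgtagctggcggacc

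Over 34943 human promoters of 300 bases (250 before and 50 after the start site), the response element core was found in 3.57%, the NF-kB site in 0.07%, TGACG in 24.51% and ATTGG in 34.65%. The response element core was found once in HLA-F and once in TAP2, and as a pair of overlapping matches in B2M and in the TAP1 entry shown. HLA-B held the NF-kB site, with its first base at -177 from the start site, and TGACG and 3 CCAAT boxes closer to the start. HLA-F held 2 CCAAT boxes without TGACG, and PSMB9 held TGACG and 1 CCAAT box without the response element core. A missing match says only that these letters are not in this window. The start sites of TAP1 and PSMB9 lie 488 bases apart and point away from each other, so the windows of this pair overlap at their far ends. The CCAAT box marked in PSMB9 and the ATTGG marked in TAP1 are the same bases there. CpG dinucleotides, the sites of DNA methylation, numbered 22 in the 300 bases of HLA-B, 17 in HLA-F, 22 in B2M, 22 in the TAP1 entry shown, 26 in PSMB9 and 24 in TAP2, against a median of 14 over all promoters. The lowest of these, HLA-F, had more CpG than 54.1% of promoters, and the highest, PSMB9, more than 70.0%. A second TAP1 entry, not shown, had 11 CpG and no motif match. Methylation was not measured in these libraries.

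All 9 genes were higher after decitabine than with DMSO, at both doses. At 100 nM 9 of 9 were called higher, where 24.0% of all tested genes were called higher and 18.7% lower, and the median log2 fold change was 1.58 for the 9 genes and 0.03 for all tested genes. At 300 nM 9 of 9 were called higher, where 34.8% of all tested genes were called higher and 31.1% lower, with medians of 1.63 and 0.05. For every one of the 9 genes both libraries of each dose lay above both DMSO libraries, but the share of all genes doing so was not counted. HLA-F, PSMB9 and TAP1 had the highest fold changes at each dose and TAP2 the lowest. In RNA from whole cultures, more cells expressing a gene and more RNA per cell cannot be told apart.

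How strong these changes appear depended on whether gene length and base composition were taken into account. Long and AT-rich transcripts were lower in the decitabine libraries as a class: at 300 nM the median log2 fold change over DMSO was -1.24 in the fifth of tested protein-coding genes with the lowest GC content and 0.72 in the fifth with the highest. The fit was therefore repeated with offsets that remove, in each library, the trend of counts with merged exon length and transcript GC content. With these offsets all 9 genes were still called higher at both doses, where 23.0% of all tested genes were called higher and 30.2% lower at 100 nM, and 30.6% and 35.7% at 300 nM. The median log2 fold change of all tested genes became -0.13 at 100 nM and -0.11 at 300 nM, and the share of calls that were higher became 43.2% at 100 nM, against 56.2% without offsets. The same share was 46.2% with offsets and 52.8% without at 300 nM. Values with offsets are given below beside the values they change most.

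**Figure D1:**
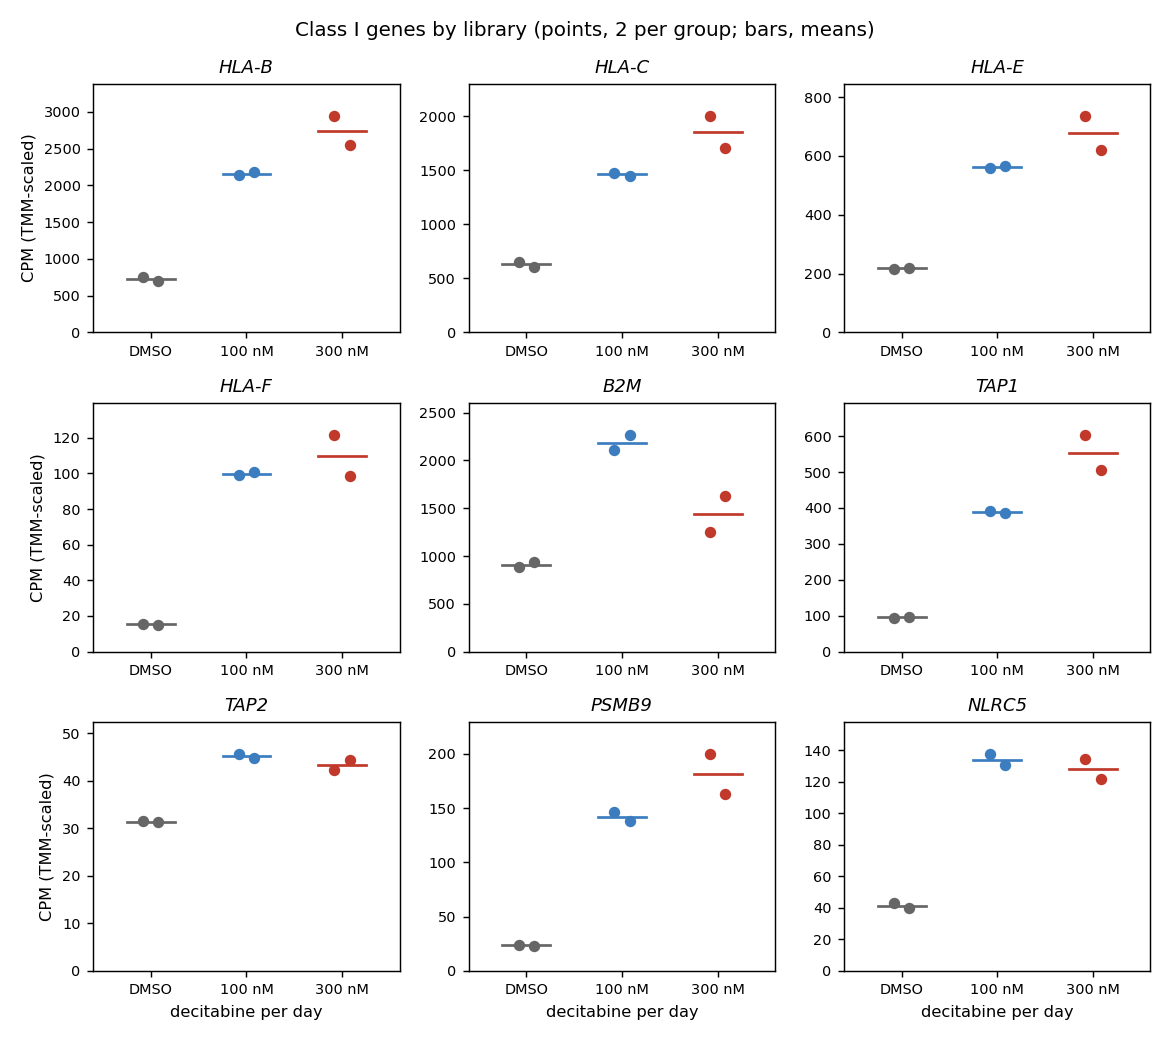
Level of each of the 9 class I genes in CPM (TMM-scaled, linear axis from 0) in the 6 libraries, grouped as DMSO, 100 nM and 300 nM decitabine; points are libraries and bars are the means of 2. Both libraries of each dose lie above both DMSO libraries for each of the 9 genes, and the share of all genes doing so was not counted. B2M lies lower at 300 nM than at 100 nM, at 1255 and 1631 CPM against 2107 and 2264 CPM.

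The classical heavy chains HLA-B and HLA-C, which present peptides to T cells, were among the most abundant of these transcripts and rose at both doses. HLA-B (ENSG00000234745.10, GRCh38 chromosome 6, 31269491 to 31357188) had 755 and 693 CPM with DMSO, 2142 and 2177 CPM at 100 nM, and 2941 and 2544 CPM at 300 nM. The 3 groups did not overlap, and the order followed dose. At 100 nM it was 2.98-fold higher than with DMSO (log2 1.58, SE 0.10, adjusted p = 9.6e-10), and at 300 nM 3.79-fold higher (log2 1.92, SE 0.10, adjusted p = 3.5e-11). With length and GC offsets HLA-B had log2 values of 1.07 at 100 nM and 1.02 at 300 nM.

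HLA-C (ENSG00000204525.16, chromosome 6, 31268749 to 31272130) had 652 and 607 CPM with DMSO, 1474 and 1451 CPM at 100 nM, and 2001 and 1710.4 CPM at 300 nM. As for HLA-B, the groups stood apart in the order of dose. It was 2.32-fold higher than with DMSO at 100 nM (log2 1.22, SE 0.10, adjusted p = 2.9e-08) and 2.95-fold higher at 300 nM (log2 1.56, SE 0.10, adjusted p = 4.9e-10). With offsets its log2 values were 0.64 at 100 nM and 0.54 at 300 nM, so HLA-C and TAP2 were the least changed of the 9 genes in that fit. Per kilobase of merged exon, the HLA-B level over the HLA-C level was 0.952 and 0.939 in DMSO libraries, 1.19 and 1.23 in 100 nM libraries, and 1.21 and 1.22 in 300 nM libraries, so that this ratio was higher in each decitabine library than in each DMSO library.

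HLA-E, a heavy chain of little variability that presents leader peptides of other class I chains to natural killer cells, rose as well. HLA-E (ENSG00000204592.8, chromosome 6, 30489467 to 30494205) had 217 and 219.8 CPM with DMSO, 560.4 and 565 CPM at 100 nM, and 735 and 620.2 CPM at 300 nM. The libraries of a group were close to each other with DMSO and at 100 nM and further apart at 300 nM, and no groups overlapped. Over DMSO it was 2.58-fold higher at 100 nM (log2 1.37, SE 0.10, adjusted p = 9.3e-09) and 3.10-fold higher at 300 nM (log2 1.63, SE 0.10, adjusted p = 3.8e-10). It was 0.88 and 0.82 with offsets.

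HLA-F, a nonclassical heavy chain that can reach the surface without peptide and is bound by receptors of natural killer cells, started lowest of the 4 HLA genes and had the highest fold change among them. HLA-F (ENSG00000204642.13, chromosome 6, 29722775 to 29738528) had 15.5 and 15.0 CPM with DMSO, 99.0 and 101 CPM at 100 nM, and 121 and 98.4 CPM at 300 nM. Decitabine libraries lay far above DMSO libraries, while the 2 doses overlapped. It was 6.55-fold higher than with DMSO at 100 nM (log2 2.71, SE 0.12, adjusted p = 1.5e-11) and 7.20-fold higher at 300 nM (log2 2.85, SE 0.12, adjusted p = 4.2e-12), and with offsets the log2 values were 2.31 and 2.11.

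Reads of HLA genes need care, because the heavy chain genes resemble each other and reads that match several of them may be shared or lost, which was not measured. Overlaps with other genes add to this, since the recorded counting carried no strand option. The annotated exons of HLA-F share 28.5% of their positions with genes of the opposite strand, and the one of these with reads in every library, HLA-F-AS1, had a mean of 2.94 CPM with DMSO, 2.85 CPM at 100 nM and 1.88 CPM at 300 nM. HLA-B shares 18.9% of its exon positions, nearly all with the opposite-strand gene AL671883.2, which stayed under 0.435 CPM in 5 libraries and reached that level in the other. HLA-E shares none.

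B2M, the light chain of all these molecules, rose at both doses but was lower at 300 nM than at 100 nM. B2M (ENSG00000166710.17, chromosome 15, 44711477 to 44718877) had 883 and 937 CPM with DMSO, 2107 and 2264 CPM at 100 nM, and 1255 and 1631 CPM at 300 nM. The 300 nM libraries lay between the other groups without overlap. B2M was 2.40-fold higher than with DMSO at 100 nM (log2 1.26, SE 0.11, adjusted p = 9.5e-08) and 1.59-fold higher at 300 nM (log2 0.66, SE 0.11, adjusted p = 6.0e-05).

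The longest transcript of B2M has 40.6% GC, while those of the 4 HLA genes have between 54.8% and 62.7%, and its difference between the doses moved more with the offsets than that of any other of the 9 genes. Length and base composition were taken out together, so the part of each was not tested. With offsets the log2 values of B2M were 1.53 at 100 nM and 1.63 at 300 nM, so that it was no longer lower at the higher dose. Without offsets, the B2M level per kilobase over the summed level of the 4 HLA genes was 0.248 and 0.282 in DMSO libraries, 0.230 and 0.247 in 100 nM libraries, and 0.101 and 0.153 in 300 nM libraries. This ratio was lowest in both 300 nM libraries, and the same was seen with principal transcript lengths, at 0.558 and 0.636 in DMSO libraries, 0.505 and 0.540 in 100 nM libraries, and 0.221 and 0.335 in 300 nM libraries. It carries no offsets: with them the 300 nM fold change of B2M, at log2 1.63, was above those of HLA-B (1.02), HLA-C (0.54) and HLA-E (0.82) and below that of HLA-F (2.11).

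The 2 chains of the peptide transporter changed very unequally. TAP1 (ENSG00000168394.11, chromosome 6, 32845209 to 32853978) had 95.0 and 95.9 CPM with DMSO, 391 and 386 CPM at 100 nM, and 602 and 506 CPM at 300 nM. The groups were ordered by dose with no overlap. TAP1 was 4.07-fold higher than with DMSO at 100 nM (log2 2.03, SE 0.11, adjusted p = 8.7e-11) and 5.81-fold higher at 300 nM (log2 2.54, SE 0.11, adjusted p = 3.0e-12), with log2 values of 1.65 and 1.85 with offsets.

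TAP2 (ENSG00000204267.13, chromosome 6, 32821833 to 32838780) had 31.4 and 31.3 CPM with DMSO, 45.6 and 44.8 CPM at 100 nM, and 42.3 and 44.3 CPM at 300 nM. Both doses lay above DMSO, and the 300 nM libraries lay just below those at 100 nM. Its fold change over DMSO was 1.44 at 100 nM (log2 0.53, SE 0.11, adjusted p = 0.0011) and 1.38 at 300 nM (log2 0.46, SE 0.11, adjusted p = 0.0016). With offsets its log2 values over DMSO were 0.33 at 100 nM and 0.29 at 300 nM. TAP1 over TAP2, per kilobase of merged exon, was 4.02 and 4.07 in DMSO libraries, 11.4 and 11.5 in 100 nM libraries, and 18.9 and 15.2 in 300 nM libraries, and these groups did not overlap. This ratio carries no offsets. Between the doses TAP1 was at log2 0.51 and TAP2 at -0.06 without offsets. With merged-exon offsets they were at 0.20 and -0.04, and with principal-transcript offsets at 0.18 and 0.06. The exons of TAP2 share 32.3% of their positions with AL669918.1 on the same strand, which had at most 2 reads in any library, and what reads were lost there was not measured.

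PSMB9, the inducible proteasome subunit encoded beside TAP1, had the highest fold change of the 9 genes at 300 nM. PSMB9 (ENSG00000240065.7, chromosome 6, 32844136 to 32859585) had 23.9 and 22.8 CPM with DMSO, 146 and 138 CPM at 100 nM, and 199.7 and 163 CPM at 300 nM. The groups stood apart in the order of dose, the 300 nM libraries being the least alike. It was 6.09-fold higher than with DMSO at 100 nM (log2 2.61, SE 0.12, adjusted p = 1.5e-11) and 7.77-fold higher at 300 nM (log2 2.96, SE 0.12, adjusted p = 2.0e-12). With merged-exon offsets the log2 values were 2.32 at 100 nM and 2.73 at 300 nM. With offsets taken from the principal transcript, a setting chosen after seeing the data, they were 2.13 and 2.05.

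The other inducible subunits rose with PSMB9, by less. PSMB8 was higher than with DMSO by log2 1.27 (adjusted p = 6.6e-08, edgeR) at 100 nM and 1.67 (8.2e-10) at 300 nM, and PSMB10 by 1.12 (2.6e-06) and 1.47 (3.8e-08). With offsets both were still called higher, PSMB8 by 0.72 at 100 nM and 0.80 at 300 nM, and PSMB10 by 0.53 and 0.44. Their constitutive counterparts PSMB5, PSMB6 and PSMB7 had log2 fold changes of 0.13, 0.12 and 0.36 at 100 nM, of which 1 was called higher, and 0.68, 0.62 and 0.64 at 300 nM, where all 3 were called higher. The shares called higher among all tested genes were 24.0% at 100 nM and 34.8% at 300 nM. The call for PSMB7 at 100 nM was lost without DMSO replicate 1, DMSO replicate 2 or 100 nM replicate 1, each left out in turn. The direction of all 3 turned with offsets, to -0.41, -0.45 and -0.13 at 100 nM and -0.13, -0.31 and -0.04 at 300 nM. Within each library and without offsets, PSMB9 over PSMB6 per kilobase was 0.0711 and 0.0680 in DMSO libraries, 0.370 and 0.415 in 100 nM libraries, and 0.361 and 0.342 in 300 nM libraries, well above DMSO at both doses and not higher at the higher one. The order of the doses depends on the offsets. With merged-exon offsets PSMB9 was at log2 2.32 and 2.73 over DMSO and PSMB6 at -0.45 and -0.31. With principal-transcript offsets they were at 2.13 and 2.05, and -0.37 and -0.26. The next 2 ratios carry no offsets either. PSMB8 over PSMB5 was 0.654 and 0.625 in DMSO libraries, 1.40 and 1.43 in 100 nM libraries, and 1.31 and 1.22 in 300 nM libraries. PSMB10 over PSMB7 was 0.0557 and 0.0502 in DMSO libraries, 0.0861 and 0.0941 in 100 nM libraries, and 0.0995 and 0.0882 in 300 nM libraries, the smallest shift of the 3 pairs.

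**Figure D2:**
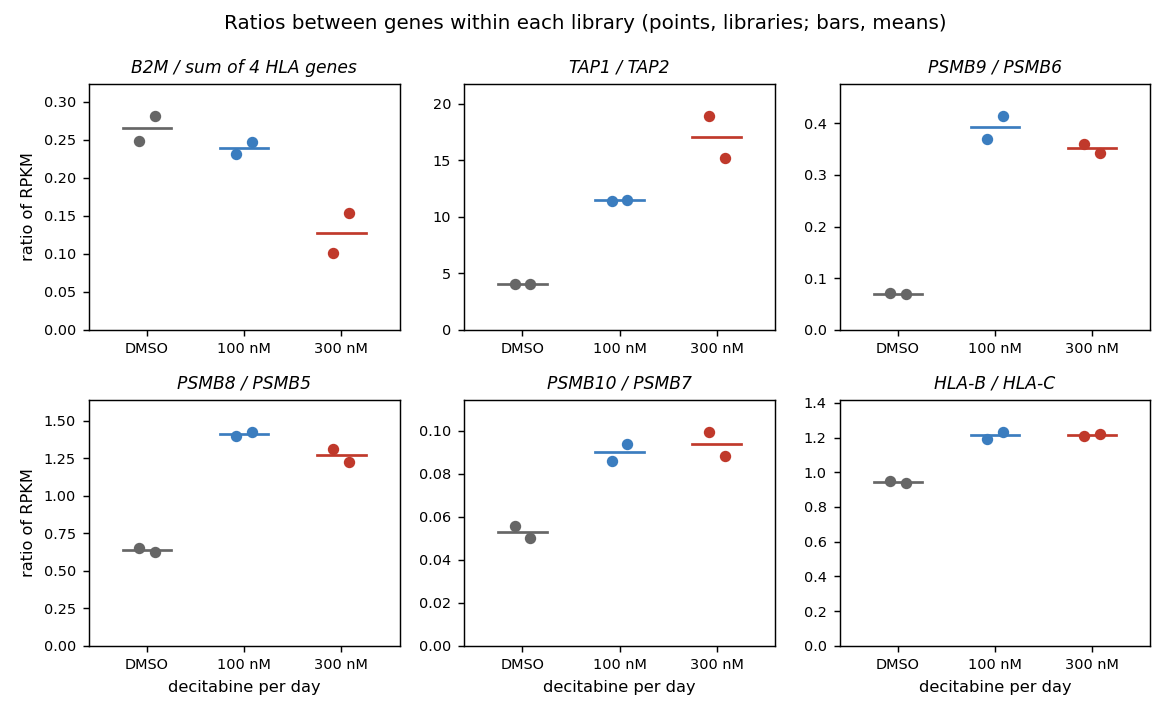
Ratios of levels per kilobase of merged exon (RPKM) within each library, on linear axes from 0, for DMSO, 100 nM and 300 nM decitabine; points are libraries and bars are means of 2. TAP1 over TAP2 is 4.02 and 4.07 with DMSO and 18.9 and 15.2 at 300 nM, while B2M over the sum of the 4 HLA genes is lowest at 300 nM, at 0.101 and 0.153, in these values without length and GC offsets.

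NLRC5, the class I transactivator, rose at both doses. NLRC5 (ENSG00000140853.15, chromosome 16, 56989485 to 57083531) had 42.9 and 39.8 CPM with DMSO, 137 and 131 CPM at 100 nM, and 134 and 121 CPM at 300 nM. Decitabine libraries were all above DMSO libraries and the doses overlapped. It was 3.24-fold higher than with DMSO at 100 nM (log2 1.70, SE 0.11, adjusted p = 1.1e-09) and 3.09-fold higher at 300 nM (log2 1.63, SE 0.11, adjusted p = 6.6e-10).

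Of 16 transcription factors known at class I promoters, 8 were called higher and 4 lower at 100 nM, with a median log2 fold change of 0.37, and 9 higher and 5 lower at 300 nM, with a median of 0.47. Of all tested genes 24.0% were called higher and 18.7% lower at 100 nM, and 34.8% and 31.1% at 300 nM, so the counts of lower factors were near that background. IRF1, an interferon-regulated activator, was higher by log2 1.46 (adjusted p = 2.4e-08, edgeR) at 100 nM and 1.62 (2.3e-09) at 300 nM. RELA, the NF-kB subunit p65, was higher by 0.63 (1.6e-04) and 1.29 (1.7e-08), or 0.29 and 0.68 with offsets. STAT2, which carries interferon signals to the nucleus, was higher by 1.24 (2.4e-08) at 100 nM and 0.72 (6.0e-06) at 300 nM. As with B2M, its 300 nM level was below that at 100 nM, by log2 -0.52 (4.5e-04), and unlike that of B2M this difference was still called with offsets, at -0.56 (8.1e-06). At 100 nM the 4 factors called lower were CREB1, ATF1, NFYA and NFYB, of the CREB/ATF and NF-Y complexes, named after their values were seen. Some or all of these calls were lost when 1 DMSO or 100 nM library was left out, and such a fit leaves 1 library in a group. Without offsets the same 4 factors were called lower at 300 nM too. CREB1 was lower there by log2 -1.20 (adjusted p = 1.1e-06, edgeR) and ATF1 by -1.12 (1.6e-05). NFYA was lower by -0.65 (1.5e-04) and NFYB by -1.03 (7.0e-06). NFYC, also of NF-Y, was called higher, by 0.41 at 100 nM and 0.72 at 300 nM.

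Between the doses, 5 of the 9 genes were called higher at 300 nM than at 100 nM and 1 lower, where 20.0% of all tested genes were called higher and 23.4% lower. TAP1 was higher by log2 0.51 (SE 0.10, adjusted p = 6.4e-04, edgeR), PSMB9 by 0.35 (SE 0.11, 0.017), HLA-B by 0.34 (SE 0.10, 0.0082), HLA-C by 0.34 (SE 0.10, 0.0092) and HLA-E by 0.27 (SE 0.10, 0.040). B2M was lower by log2 -0.60 (SE 0.11, adjusted p = 3.9e-04). HLA-F at 0.14 (0.361), TAP2 at -0.06 (0.700) and NLRC5 at -0.07 (0.637) did not pass the test.

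Most of these differences between doses were not called with offsets. With merged-exon offsets 2 genes were called higher at 300 nM than at 100 nM, where 21.1% of all tested genes were called higher and 17.6% lower, TAP1 (log2 0.20, adjusted p = 0.018) and PSMB9 (0.40, 0.0043), and the calls for HLA-B (-0.05, 0.564), HLA-C (-0.10, 0.177) and HLA-E (-0.06, 0.496) were gone. B2M then had a log2 difference of 0.11 (0.181), with the opposite sign, and HLA-F was called lower (-0.20, 0.034). With principal-transcript offsets only TAP1 of the 9 was called higher (0.18, 0.021), and PSMB9 was at -0.08 (0.373). Single libraries mattered as well: 1 of the 9 genes was called higher without 100 nM replicate 1, 2 without 100 nM replicate 2 and 3 without 300 nM replicate 1. Over all genes, 54.6% of calls between doses were higher with merged-exon offsets and 46.0% without.

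**Figure D3:**
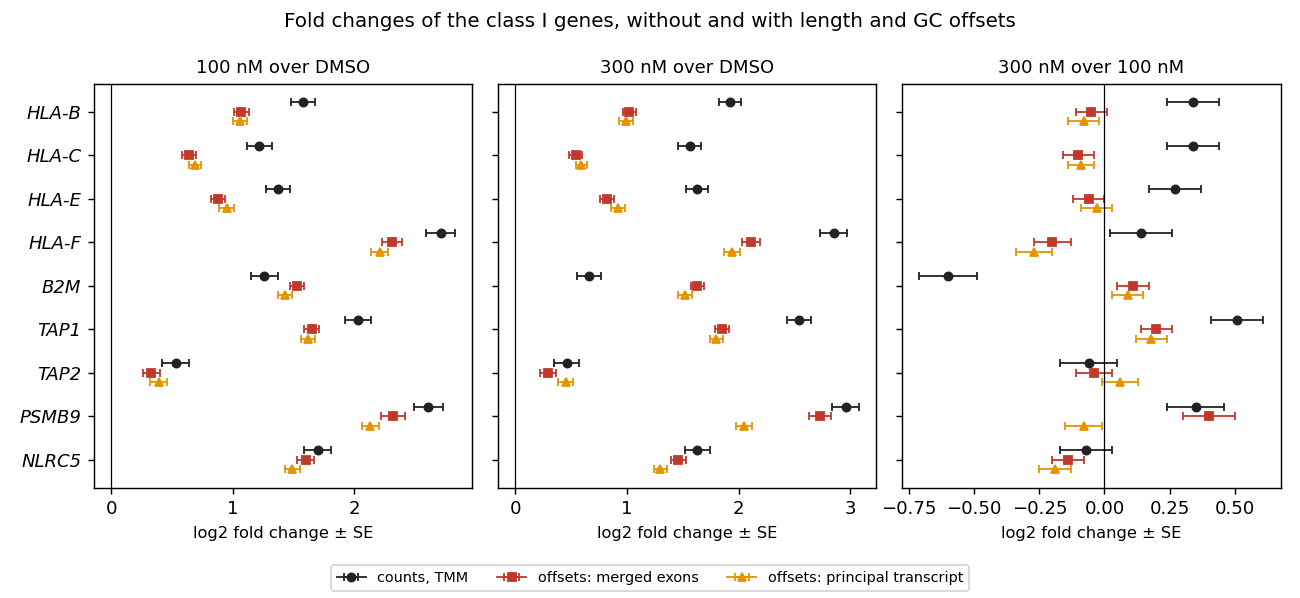
Log2 fold change (point) with its standard error (bar) of each class I gene for 100 nM over DMSO, 300 nM over DMSO and 300 nM over 100 nM, from TMM-scaled counts (black), with offsets for merged exon length and GC (red) and with offsets from the principal transcript (orange). All points against DMSO are above 0 in every fit, while between doses the HLA genes and B2M change sides of 0 with both offsets and TAP2 and PSMB9 with principal-transcript offsets, B2M lying at -0.60 without offsets and at 0.11 and 0.09 with them.

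Levels of different genes were compared per kilobase of the principal transcript, in CPM per kilobase. With DMSO the order was B2M at 534 ± 22.4 (SD, n = 2 throughout), HLA-B at 468 ± 28.3, HLA-C at 335 ± 17.0, HLA-E at 84.0 ± 0.720, TAP1 at 32.2 ± 0.226, PSMB9 at 29.8 ± 0.964, HLA-F at 9.33 ± 0.189, NLRC5 at 6.06 ± 0.318 and TAP2 at 5.52 ± 0.00947. At 100 nM HLA-B came first at 1396 ± 16.2, ahead of B2M at 1282 ± 64.9, and PSMB9 at 182 ± 7.46 stood above TAP1 at 131 ± 1.00. At 300 nM HLA-B was at 1773 ± 181, HLA-C at 987 ± 109 and B2M at 846 ± 156, and the libraries of HLA-C and B2M overlapped, as did those of HLA-E at 261 ± 31.3 and PSMB9 at 232 ± 33.2. All other neighbours in the 3 orders had libraries that did not overlap. The order depends on the length used: per kilobase of merged exons HLA-C and HLA-B led with DMSO and overlapped, at 251 and 237, and B2M followed at 149.5.

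Other genes of peptide supply and loading changed less uniformly than the 9. Of 13, 9 were called higher and 2 lower at 100 nM, with a median log2 fold change of 0.45, and 9 higher and 3 lower at 300 nM, with a median of 0.66. The shares called higher and lower among all tested genes were 24.0% and 18.7% at 100 nM and 34.8% and 31.1% at 300 nM, so the lower genes were no more frequent than that background. PSMB8 and PSMB10 led the rises. At 300 nM the lower genes included ERAP2, an aminopeptidase that trims peptides in the endoplasmic reticulum, at log2 -1.54 (adjusted p = 1.1e-08, edgeR), and UGGT1, a glucosyltransferase that checks the folding of glycoproteins, at -1.13 (1.1e-07). At 100 nM ERAP2 was at -0.28 (0.078) and UGGT1 at -0.42 (0.0049), and with offsets ERAP2 was at 0.04 at that dose. At 300 nM both were still called lower with offsets, by less, with ERAP2 at -0.45 and UGGT1 at -0.41, or -0.20 for UGGT1 with principal-transcript offsets. The 2 calls of lower genes at 100 nM were both lost without DMSO replicate 2 or without 100 nM replicate 1.

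Class I-like surface molecules were raised in most cases that could be tested. Of 15 such genes 13 were tested, and 10 were called higher and 0 lower at each dose, with median log2 fold changes of 1.27 at 100 nM and 2.04 at 300 nM. With offsets 1 of the 13 was called lower at each dose. Without them, 24.0% of all tested genes were called higher and 18.7% lower at 100 nM, and 34.8% and 31.1% at 300 nM. The medians of all tested genes were 0.03 and 0.05. HLA-G, a nonclassical heavy chain typical of placenta, was near absent with DMSO, with 11 and 12 reads, against 115 and 94 reads at 100 nM and 516 and 405 reads at 300 nM. This came to log2 3.16 (adjusted p = 6.8e-07, edgeR) at 100 nM and 5.42 (1.4e-10) at 300 nM, or 2.59 and 4.44 with offsets, and its reads may be shared with other HLA genes. ULBP1 and RAET1E, ligands of the natural killer receptor NKG2D, had log2 fold changes of 3.75 (1.8e-06) and 2.52 (5.9e-08) at 100 nM and 4.07 (2.5e-07) and 3.02 (2.3e-09) at 300 nM. FCGRT, the heavy chain of the neonatal Fc receptor, which also pairs with B2M, was higher by 2.91 (1.5e-07) and 3.25 (1.3e-08), or 2.46 and 2.41 with offsets. All 4 were low with DMSO, at means of 0.121 CPM for HLA-G, 0.0735 CPM for ULBP1, 0.758 CPM for RAET1E and 0.391 CPM for FCGRT.

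Genes that remove class I from the surface or repress its transcription were called in shares not far from those of all tested genes. Of 11, 4 were called higher and 2 lower at 100 nM, with a median log2 fold change of -0.16, and 5 higher and 4 lower at 300 nM, with a median of 0.00, where 24.0% and 18.7% of all tested genes were called higher and lower at 100 nM and 34.8% and 31.1% at 300 nM. MARCH4, a ubiquitin ligase that can lower surface class I when overexpressed, was higher by log2 2.09 (adjusted p = 1.1e-08, edgeR) at 100 nM and 3.83 (3.0e-12) at 300 nM, or 1.69 and 3.11 with offsets. At 300 nM 2 of the 11 were called higher without DMSO replicate 1 or without DMSO replicate 2. SUZ12 and EZH2, subunits of the Polycomb repressive complex that methylates histone H3, were lower by -0.37 (0.038) and -0.38 (0.014) at 100 nM, and by -1.80 (6.4e-09) and -0.82 (9.1e-06) at 300 nM. With offsets they were still called lower at 300 nM, at -0.43 and -0.30. The calls at 100 nM were lost without DMSO replicate 1, DMSO replicate 2 or 100 nM replicate 1, each left out in turn, and with offsets SUZ12 was at 0.05 at that dose.

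**Figure D4:**
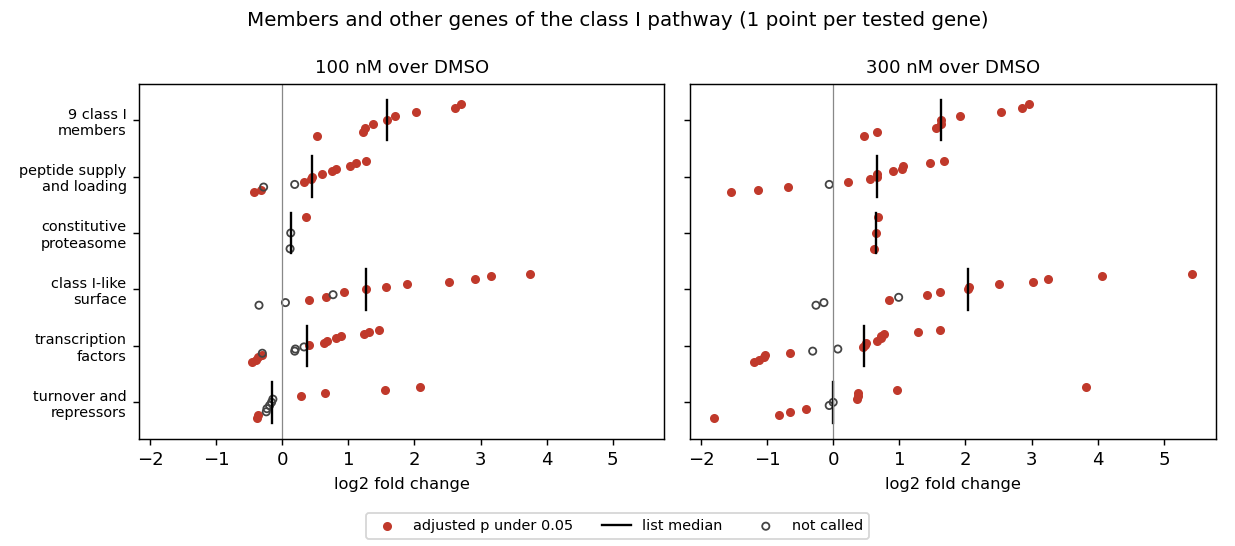
Log2 fold change of each tested gene (points) at 100 nM over DMSO and 300 nM over DMSO for the 9 class I genes and 5 lists of related genes; filled points have an adjusted p under 0.05, open points do not, and vertical bars are list medians. The 9 genes all lie above 0 with medians of 1.58 and 1.63, while the peptide supply list, the transcription factors and the turnover genes hold points on both sides.

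Of the 9 genes, 7 lie on chromosome 6 in the MHC, between 29722775 and 32859585 (GRCh38). Another 95 protein-coding genes tested lie in this stretch, which was drawn with the results known. At 100 nM 38 of these were called higher and 13 lower, or 40.0% and 13.7%, against 28.3% and 23.4% of all 15386 tested protein-coding genes. At 300 nM 51 were called higher and 10 lower, or 53.7% and 10.5%, against 40.9% and 34.4%. The median log2 fold change of the stretch was 0.17 for 100 nM and 0.55 for 300 nM, against 0.03 and 0.11 for all tested protein-coding genes. With offsets the stretch did not lean higher. At 100 nM 23 of its genes were then called higher and 36 lower, or 24.2% and 37.9%, against 27.9% and 36.8% of all tested protein-coding genes, with medians of -0.23 and -0.09. At 300 nM 30 were called higher and 40 lower, or 31.6% and 42.1%, against 37.2% and 38.2%, with medians of -0.21 and -0.02. The 7 genes described here were called higher with and without offsets. They were chosen with earlier results known, and the other 95 include class I genes such as PSMB8 and HLA-G, so pathway and stretch are not cleanly separated.

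The genes whose pattern came closest to NLRC5, HLA-B and B2M were sought among 12431 expressed protein-coding genes, by the Euclidean distance over the 6 libraries between log2 CPM values centred on the DMSO mean. Closest to NLRC5 were IL15RA, the alpha chain of the interleukin-15 receptor (distance 0.13), CEBPB, a leucine zipper transcription factor (0.20), and PRDM8 (0.21). IL15RA had 16.1 and 16.1 CPM with DMSO, 53.9 and 50.8 CPM at 100 nM, and 55.3 and 45.1 CPM at 300 nM. With merged-exon offsets IL15RA (log2 -0.42, adjusted p = 3.8e-04, edgeR) and CEBPB (-0.65, 4.6e-06) were called lower at 300 nM than at 100 nM. PRDM8 (-0.22, 0.217) and NLRC5 itself (-0.14, 0.092) were not. With principal-transcript offsets IL15RA, CEBPB and NLRC5 were called lower, at -0.45, -0.62 and -0.19. Closest to HLA-B were TNIP1, an inhibitor of NF-kB signalling (0.11), NINJ1, a protein of plasma membrane rupture (0.11), and PLK3, a stress-response kinase (0.12). TNIP1 had 209.6 and 203 CPM with DMSO, 620.3 and 634 CPM at 100 nM, and 833 and 687 CPM at 300 nM. Between the doses, with merged-exon offsets, TNIP1, NINJ1 and PLK3 were at log2 -0.02, -0.06 and -0.01 and HLA-B at -0.05, none of them called. Closest to B2M were NMI, an interferon-induced protein that binds STAT factors (0.17), CARD6 (0.24) and TENT5A, a poly(A) polymerase (0.25). Their levels were lower at 300 nM than at 100 nM, by log2 -0.72, -0.58 and -0.83. Each set of 3 genes was chosen by likeness to NLRC5, HLA-B or B2M over the same libraries. The levels and p-values of these neighbours are therefore no independent support for the pattern of NLRC5, HLA-B or B2M. With merged-exon offsets NMI (-0.32, adjusted p = 0.0029) and TENT5A (-0.19, 0.048) were still called lower and CARD6 (-0.29, 0.054) was not, and with principal-transcript offsets the call was lost for NMI (-0.08, 0.447), CARD6 (-0.19, 0.196) and TENT5A (-0.09, 0.344). NMI had 20.9 and 22.9 CPM with DMSO, 52.7 and 54.0 CPM at 100 nM, and 29.6 and 35.3 CPM at 300 nM.

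Class I genes are highly expressed in blood cells, endothelium and fibroblasts, so markers of these were read beside them. The summed level of 14 blood and immune markers was 1.34 and 1.57 CPM with DMSO, 5.40 and 5.15 CPM at 100 nM, and 10.7 and 8.14 CPM at 300 nM. Among all tested genes 24.0% were called higher at 100 nM and 34.8% at 300 nM. Of the 10 blood and immune markers that were tested, 7 were called higher at 100 nM and 8 at 300 nM, with 0 lower. At 100 nM 3 were called higher without DMSO replicate 1 or without 100 nM replicate 1, and 4 with offsets. Among the 14, CD2 and MS4A1 had 0 reads in all 6 libraries. Counting error alone allows up to 3 reads a library there, or 0.031 to 0.0336 CPM. PTPRC, the leukocyte common antigen, had at most 0.106 CPM. Other lineage markers of the list were higher. ITGAM averaged 0.264 CPM with DMSO, 1.60 CPM at 100 nM and 2.01 CPM at 300 nM. In the same order CD79A averaged 0.210, 0.478 and 0.854 CPM, and CD14 0.499, 0.711 and 1.02 CPM, with CD14 called only at 300 nM. GNLY averaged 0.105 CPM with DMSO, 0.930 CPM at 100 nM and 2.51 CPM at 300 nM. CD3D averaged 0.0106 CPM with DMSO, 0.109 CPM at 100 nM and 0.447 CPM at 300 nM, while LYZ, the lysozyme of myeloid cells, averaged 0.0106 CPM for DMSO, 0.162 CPM for 100 nM and 0.106 CPM for 300 nM. The 8 endothelial and fibroblast markers summed to 1.75 and 2.33 CPM with DMSO, 5.60 and 5.84 CPM at 100 nM, and 7.27 and 7.15 CPM at 300 nM, with 4 of 7 called higher at 100 nM and 5 of 7 at 300 nM. Among these, PECAM1, TEK, LUM and DCN had means at 300 nM of 1.37, 1.19, 1.39 and 1.20 CPM, against 0.116, 0.0631, 0.621 and 0.179 CPM with DMSO. LUM averaged 2.67 CPM at 100 nM, above its 300 nM level. VWF averaged 0.859 CPM with DMSO, 0.538 CPM at 100 nM and 1.68 CPM at 300 nM, and was called only at 300 nM. CDH5 and PDGFRA were not called at either dose, and KDR was not tested. The 9 class I genes summed to 2717 and 2662 CPM with DMSO, 7102 and 7258 CPM at 100 nM, and 8033 and 7439 CPM at 300 nM, and the part of other cells in their change was not tested.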

How the data were processed

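Polyadenylated RNA from 6 libraries was used, 2 per group. The authors deposited unnormalised counts (whole reads for each gene) from featureCounts 1.5.0-p3 on GENCODE v28, per the file headers; STAR, SAMtools and DESeq2 are named without versions in the submitters' processing notes. The recorded command has no paired-end, strand or multi-mapping option, so mates were counted separately, antisense reads were not told apart and reads matching several HLA genes could be lost. The notes name hg19 and GRCh37, but 56888 of 56888 gene identifiers shared with GENCODE v29 have its GRCh38 coordinates, which are used here. The authors also deposited a log2 matrix of variance-stabilised values, used only as an alternative. Its function and settings are not given in the sources used here.

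Counts were analysed with edgeR 4.0.16 (R 4.3.3): filterByExpr kept 23160 genes, TMM factors were 0.915 to 1.04, and the quasi-likelihood fit of all 6 libraries had 3 residual degrees of freedom and a biological coefficient of variation of 11.8%. The scripts were tested on simulated data. With 2 libraries per group precision is limited, and depth is 89159112 to 96646427 reads. Floors of 3 reads cover counting error only, since reads without molecular identifiers are not independent molecules.

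The 9 genes and all lists were chosen with earlier results of these data known. Named genes are the 9, SETD2, up to 4 called genes per list with the largest absolute log2 fold change, and the 3 coding genes nearest in pattern to NLRC5, HLA-B and B2M (mean of at least 1 CPM, prior count 2). The values of 3 list genes are not reported here, and others named were chosen after their values were seen. Alternatives were RLE factors, no filter, only the groups compared, a replicate block, length and GC offsets (merged exon, and principal transcript, added after seeing the data), each library left out, DESeq2 1.42.0 and limma 3.58.1 on the deposited matrix.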

Additional observations from a re-analysis of the deposited data

How the results depend on the processing

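Against DMSO, each of the 9 class I genes kept its direction and its call at both doses under all 15 alternatives, the largest adjusted p being 0.025 at 100 nM and 0.034 at 300 nM, both for TAP2. The log2 fold change of B2M at 300 nM ranged from 0.46 to 1.63.

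Between doses, merged-exon length and GC offsets turned HLA-B to -0.05, HLA-C to -0.10, HLA-E to -0.06, HLA-F to -0.20 and B2M to 0.11, with 2 genes called higher. The same offsets with the replicate block gave -0.05, -0.10, -0.06, -0.20 and 0.10, with 2 genes called higher. Principal-transcript offsets, chosen after seeing the data, gave -0.08, -0.09, -0.03, -0.27 and 0.09, TAP2 0.06, PSMB9 -0.08 and NLRC5 -0.19, with 1 gene called higher and 2 lower. TAP2 was 0.01 with RLE factors, DESeq2 and the deposited matrix, and NLRC5 0.01, 0.01 and 0.00. HLA-E lost its call with only the groups compared (0.26) and in the deposited matrix (0.34). Leaving out 1 library gave 0.24 to 0.44 for HLA-B, 0.22 to 0.45 for HLA-C, 0.14 to 0.38 for HLA-E, -0.02 to 0.28 for HLA-F, 0.20 to 0.49 for PSMB9 and -0.14 to 0.00 for NLRC5, with 1 to 6 genes called higher. Lost calls were HLA-B, HLA-C and PSMB9 without 100 nM replicate 1, HLA-C and PSMB9 without 100 nM replicate 2, PSMB9 without 300 nM replicate 1, and HLA-E in 5 of 6 cases, while HLA-F was called without 300 nM replicate 2 (0.28).

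Over all genes, 6994 were called lower at 100 nM with offsets, 7070 with the replicate block added and 7024 with principal-transcript offsets, against 4331, and 2883 to 5036 with 1 library left out. Genes called higher at 300 nM over 100 nM then numbered 2896 to 4901.

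With offsets (merged-exon, the same with block, principal-transcript), counts at 100 nM were 1, 1 and 0 lower for peptide supply; 0, 0 and 0 higher and 2, 2 and 2 lower for constitutive proteasome genes; 1, 1 and 1 lower for class I-like genes; 4, 4 and 5 lower for turnover genes; 1, 1 and 1 lower for endothelial and fibroblast markers; and 4 and 4 higher for blood markers with the first 2. At 300 nM they were 0, 0 and 0 higher and 1, 1 and 1 lower for constitutive proteasome genes, 1, 1 and 1 lower for class I-like genes (also 1 with the replicate block alone), 3, 3 and 2 higher for turnover genes, and 5 higher for blood markers with offsets and block. In the deposited matrix at 100 nM, 0 constitutive proteasome genes and 4 blood markers were higher, and 0 transcription factors and 1 turnover gene lower. Leaving out 1 library gave, at 100 nM, 0 to 3 lower for peptide supply, 0 to 1 higher for constitutive proteasome genes, 0 to 4 lower for transcription factors, 0 to 2 lower for turnover genes and 3 to 7 higher for blood markers, and, at 300 nM, 2 to 5 higher for turnover genes and 2 to 4 lower for renal markers.

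Single genes turned with the same 3 offset settings: at 100 nM ERAP2 to 0.04, 0.04 and 0.06, PSMB5 to -0.41, -0.41 and -0.33, PSMB6 to -0.45, -0.45 and -0.37, PSMB7 to -0.13, -0.13 and -0.05, and SUZ12 to 0.05, 0.05 and 0.04; at 300 nM PSMB5 to -0.13, -0.13 and -0.05, PSMB6 to -0.31, -0.31 and -0.26, and PSMB7 to -0.04 and -0.04 with the first 2. For all of these the cause was not tested.

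The replicate block alone changed no call of the 9 genes. Deviations of libraries with the same number correlated at 0.0201, 0.0075 and 0.0748, so the numbers were not taken to pair libraries. With 2 libraries per group, spread is poorly measured. Reads shared between HLA genes, protein and surface levels were not measured.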
